A study of Mus musculus with 2 samples.

Results

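The regions described here are the 5′ ends of the chemosensory receptor genes of the mouse autosomes: 1471 protein-coding genes of the GENCODE M1 annotation of build NCBIM37 (mm9) whose symbols start with Olfr, Vmn1r, Vmn2r, Tas1r or Tas2r, out of 22350 protein-coding genes on the autosomes and X. They were chosen by symbol alone. They comprise 1106 Olfr, 203 Vmn1r, 124 Vmn2r, 3 Tas1r and 35 Tas2r genes on 18 autosomes, and another 8 such genes on chromosome X were left out by the same rule. One symbol is shared by 2 of the genes, and 33 symbols end in -ps, the suffix of pseudogenes, although the annotation lists those genes as protein-coding.

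Chromatin immunoprecipitation followed by sequencing (ChIP-seq) had been carried out on mouse 3T3 fibroblasts of genotype Ccnd1-/-, derived from mouse embryonic fibroblasts, that lack the gene for cyclin D1 and carry FLAG-tagged cyclin D1 from the retroviral vector MSCV. Both libraries came from these same untreated cells. In 1 library fixed chromatin was precipitated with the M2 anti-FLAG antibody and in the other with normal mouse IgG, the background control, so the comparison asks where anti-FLAG recovered more or less DNA than IgG. There was 1 library per antibody and no library from cells without the FLAG tag, so each test compares the tags of these 2 libraries and not the antibodies in general. The vector-driven cyclin D1 is not under the control of the Ccnd1 promoter. No RNA was measured, so neither the identity of the fibroblasts nor the silence of the receptor genes in them was checked by these data.

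The anti-FLAG library held 9259840 tags and the IgG library 9312346, each tag being the position of a 36-base read. Over the autosomes and X the mean densities were 3.62 anti-FLAG and 3.64 IgG tags per kb. A window reaching 1 kb either side of a 5′ end therefore holds few tags, and the 95% intervals given below cover counting error only. All ratios are of anti-FLAG tags to IgG tags after IgG was scaled by 0.994, the ratio of the library totals on the autosomes and X.

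Olfr genes encode olfactory receptors, the odorant receptors of the nasal epithelium, where each olfactory sensory neuron expresses a single allele of a single gene. Vmn1r and Vmn2r genes encode the 2 families of vomeronasal receptors, which detect pheromones and related cues. Tas1r genes encode subunits of the sweet and umami taste receptors and Tas2r genes the bitter taste receptors. Most of these genes lie in tandem arrays, are AT-rich, and are held in repressed chromatin outside sensory cells. Cyclin D1 activates the kinases CDK4 and CDK6 in the G1 phase and has also been found on chromatin.

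The sequences upstream of the annotated 5′ ends are shown for their few CpG. In many receptors, the annotated 5′ end is at or near the coding start, so in those receptors these bases lie beside the coding exon. In none were they shown to be promoters. Stretches of 300 bases from 5 genes, read 5′ to 3′ on the strand of the gene from NCBIM37 and ending at the base before the annotated 5′ end, are printed with every CpG in capitals. Olfr1446 (minus strand, chr19:12965149-12965448) was among the receptors with the smallest p. Olfr1420 (plus strand, chr19:11970189-11970488) had the most anti-FLAG tags. Olfr78 (minus strand, chr7:109907986-109908285) and Tas2r105 (minus strand, chr6:131637514-131637813) are receptors with known ligands. Tas1r1 (minus strand, chr4:151412678-151412977) was added after its values had been seen, as the only Tas1r gene with enough tags to test within 1 kb. No annotated exon overlaps any of the 5 stretches. The coding start lies 16470 bp from the annotated 5′ end in Olfr78, and 24 to 182 bp from it in the others.
Olfr1446: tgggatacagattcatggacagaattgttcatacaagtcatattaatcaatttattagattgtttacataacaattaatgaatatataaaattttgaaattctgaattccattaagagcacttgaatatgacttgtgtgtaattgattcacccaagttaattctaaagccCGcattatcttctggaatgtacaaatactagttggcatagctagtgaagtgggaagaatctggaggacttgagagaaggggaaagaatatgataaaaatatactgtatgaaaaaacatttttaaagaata
Olfr1420: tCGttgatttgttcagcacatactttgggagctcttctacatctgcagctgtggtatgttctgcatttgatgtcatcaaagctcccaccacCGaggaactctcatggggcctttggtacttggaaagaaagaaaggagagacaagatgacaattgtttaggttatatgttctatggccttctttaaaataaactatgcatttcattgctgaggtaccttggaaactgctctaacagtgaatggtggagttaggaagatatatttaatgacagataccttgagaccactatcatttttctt
Olfr78: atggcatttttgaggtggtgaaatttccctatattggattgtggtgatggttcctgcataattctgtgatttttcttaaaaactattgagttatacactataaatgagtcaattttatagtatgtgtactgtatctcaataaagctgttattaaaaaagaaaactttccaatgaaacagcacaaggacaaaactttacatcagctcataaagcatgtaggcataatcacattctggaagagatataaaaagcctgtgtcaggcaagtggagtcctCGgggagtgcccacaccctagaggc
Tas2r105: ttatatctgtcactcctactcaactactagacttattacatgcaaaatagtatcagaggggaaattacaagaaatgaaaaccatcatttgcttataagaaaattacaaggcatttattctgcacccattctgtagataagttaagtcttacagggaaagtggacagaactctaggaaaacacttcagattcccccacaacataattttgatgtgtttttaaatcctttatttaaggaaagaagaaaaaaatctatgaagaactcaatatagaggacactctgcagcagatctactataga
Tas1r1: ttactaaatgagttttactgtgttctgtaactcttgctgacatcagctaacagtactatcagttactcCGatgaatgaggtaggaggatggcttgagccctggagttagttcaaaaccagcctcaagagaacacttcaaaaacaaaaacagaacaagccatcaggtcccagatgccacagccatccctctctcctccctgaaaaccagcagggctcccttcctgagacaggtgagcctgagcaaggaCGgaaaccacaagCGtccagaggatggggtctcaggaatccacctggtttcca
Tas2r105 had 0 CpG in these 300 bases, Olfr1446 and Olfr78 had 1, Olfr1420 had 2 and Tas1r1 had 3. Their GC content ran from 29.7% for Olfr1446 to 49% for Tas1r1.

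Across the receptors the same stretch held a median of 1 CpG, against 11 in the 19947 other autosomal protein-coding genes. No CpG at all was found in 563 receptors (38.3%), against 3.66% of the other genes. The 105 Krtap, Defb and Lce genes, other tandem families, also had a median of 1 CpG, and 20% of them had none. Few CpG were thus not particular to the receptors. In the same 300 bases 3 motifs were searched on both strands. GGGCGG, the GC box bound by Sp1-type factors, occurred in 15 receptors (1.02%) and in 40.9% of all protein-coding genes. The EBF palindrome, the site of transcription factors of olfactory neurons, occurred in 5 receptors (0.340%), all of them Olfr, and in 0.917% of all genes. TGANTCA covers the AP-1 site, TGACTCA or TGAGTCA, but also the same letters with A or T at the centre, so its matches are not all AP-1 sites. TGANTCA occurred in 203 receptors (13.8%) and in 7.12% of all genes. Its share was 30.6% in Vmn2r, 17.1% in Tas2r, 15.3% in Vmn1r and 11.6% in Olfr genes. In the Krtap, Defb and Lce genes the shares were 17.1% for TGANTCA, 2.86% for GGGCGG and 0% for the EBF palindrome. A match gives letters only and says nothing of binding. Since the annotated start is the coding start in 898 receptors, these shares do not compare promoters with promoters.

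No receptor gene passed the test in the anti-FLAG direction at either width. Within 1 kb of the 5′ end, 85 of the 1471 receptors had the 20 tags in both libraries together that the test required. Of these 85, 0 were higher with anti-FLAG and 5 were lower at an adjusted p under 0.05 (2-sided exact conditional binomial test, Benjamini-Hochberg over all 10947 genes tested). Over all genes tested, 29.7% were higher and 0.0913% were lower. At an unadjusted p under 0.05 the receptor counts were 0 higher and 9 lower, against 4713 and 30 of all 10947 genes tested. Within 2.5 kb, 1225 receptors could be tested by the same exact test, and 0 were higher and 15 lower, against 10.5% higher and 0.148% lower over all 20310 genes tested. At an unadjusted p under 0.05 the receptor counts were 10 and 94, against 5131 and 266 of all 20310 genes tested. Receptors made up 5 of the 10 genes lower at an adjusted p under 0.05 within 1 kb (exact test). Within 2.5 kb they made up 15 of 30. Among all genes tested they were 85 of 10947 and 1225 of 20310. The 5 within 1 kb had 2 to 5 anti-FLAG and 16 to 18 IgG tags. They thus reached the 20 tags required mostly through IgG, and a receptor with few IgG tags could not enter in this direction.

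The depth sets what these counts can show. Within 1 kb, 70 receptors had 0 tags in both libraries, 512 had 1 to 9, 804 had 10 to 19 and 85 had 20 or more, and receptors under 20 tags entered no test at this width. A receptor that did not pass may therefore still differ by an amount not detectable at this depth. Over all receptors the median was 5 anti-FLAG tags (range 0 to 21) and 6 IgG tags (range 0 to 19). IgG tags outnumbered anti-FLAG tags at 799 receptors, after scaling, and anti-FLAG tags outnumbered IgG at 602.

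**Figure D1:**
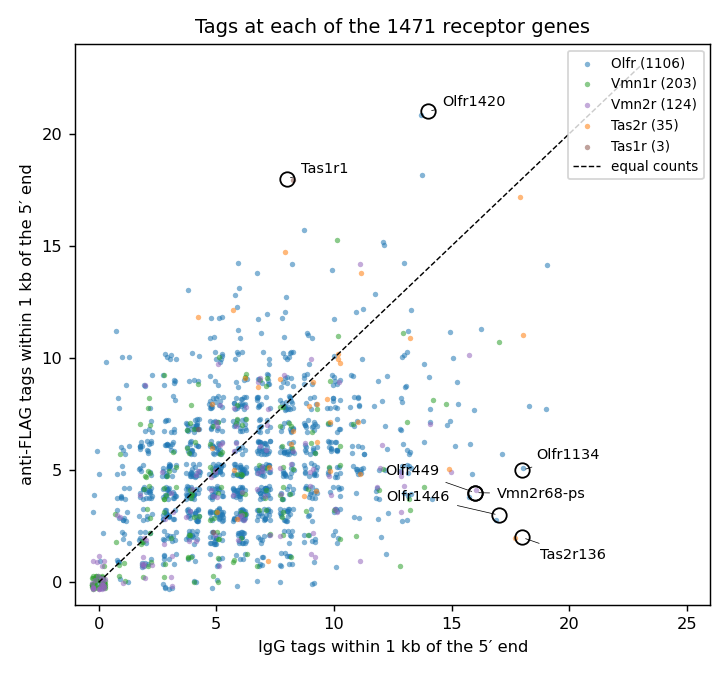
Anti-FLAG tags (y axis) against IgG tags (x axis) within 1 kb of the 5′ end for each receptor gene, coloured by family, with points spread by up to 0.3 tags so that they do not hide each other; the dashed line marks equal counts. Circles mark the 5 receptors lower with anti-FLAG (Olfr449 and Vmn2r68-ps share 1 circle at 4 and 16 tags), Tas1r1 and Olfr1420.

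The 5 receptors that were lower within 1 kb came from 3 families and 4 chromosomes. Tas2r136 (ENSMUSG00000053217.3, chr6:132727197-132728180, minus strand), a bitter taste receptor gene whose annotated 5′ end is its coding start, had 2 anti-FLAG and 18 IgG tags. Its ratio was 0.112 (0.0126 to 0.467) with an adjusted p of 0.00513 by the exact test. It was also lower within 2.5 kb, where it had 6 anti-FLAG and 30 IgG tags (adjusted p = 0.00340, exact test).

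Olfr1446 on chromosome 19 had 3 anti-FLAG and 17 IgG tags, a ratio of 0.177 (0.0333 to 0.614; adjusted p = 0.0154, exact test). Within 2.5 kb it had 19 and 31 tags, and the interval of that ratio, 0.616 (0.329 to 1.13), included 1. The 2.5 kb window of this gene was therefore not lower beyond counting error.

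Olfr1134 on chromosome 2 had 5 anti-FLAG and 18 IgG tags (adjusted p = 0.0391, exact test), and its 5′ end coincides with that of another annotated gene, Gm13741, so reads from the 2 starts cannot be told apart. Olfr449 on chromosome 6 and Vmn2r68-ps on chromosome 7 each had 4 anti-FLAG and 16 IgG tags (adjusted p = 0.0425, exact test). Vmn2r68-ps stayed lower at 2.5 kb, with 6 and 25 tags (adjusted p = 0.0165, exact test). The 15 receptors lower within 2.5 kb were 11 Olfr, 3 Vmn2r and 1 Tas2r gene, with 5 to 12 anti-FLAG and 20 to 34 IgG tags each. Within 1 kb, windows of 4 of the 5 lower genes held 29.9% to 36.6% GC, and that of Olfr449 held 41.8%.

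GC content moved with the ratio across the whole genome, in receptor and other windows. Among windows of 500 bp that lay more than 10 kb from any annotated gene start, the ratio was 0.729 at 30 to 32% GC, 0.899 at 38 to 40% and 1.34 at 50 to 52%. The receptor windows had a median GC content of 37.8%, against 51.9% for the other genes. When the expected tags were corrected by the distant windows of the same GC content, 0 receptors were higher and 0 lower at either width by the exact test. Over all genes 2.3% were then higher and 0.0183% lower within 1 kb, and 0.975% higher and 0.00492% lower within 2.5 kb. The GC-corrected adjusted p of the 5 receptors ran from 0.0511 for Tas2r136 to 0.298 for Vmn2r68-ps (exact test). At an unadjusted p under 0.05 the corrected test gave 1 receptor higher and 4 lower of 85 within 1 kb, and 18 and 43 of 1225 within 2.5 kb. Over all genes tested it gave 2049 and 62 of 10947 within 1 kb, and 2449 and 297 of 20310 within 2.5 kb.

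Summed over the receptors, anti-FLAG recovered fewer tags than IgG. The 1471 windows of 1 kb either side held 7296 anti-FLAG and 8899 IgG tags, a ratio of 0.825 (0.799 to 0.851), while those of the other autosomal genes had a ratio of 1.75 (1.74 to 1.76). Corrected for GC content, the ratios were 0.919 (0.891 to 0.948) and 1.33 (1.32 to 1.34). The median log2 ratio, with 1 tag added to each count, was -0.22 in receptors and 0.66 in the other genes. Within 2.5 kb the receptor ratio was 0.805 (0.789 to 0.820), and 0.935 (0.917 to 0.953) after GC correction.

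By family, the Olfr windows held 5847 anti-FLAG and 6995 IgG tags, a ratio of 0.841 (0.812 to 0.871). Vmn1r windows held 708 and 913 tags, a ratio of 0.780 (0.706 to 0.861), and Vmn2r windows 443 and 649 tags, a ratio of 0.687 (0.607 to 0.776). Tas2r windows held 271 and 325 tags, a ratio of 0.839 (0.711 to 0.988). The intervals of Vmn1r overlapped those of all the others, and that of Vmn2r lay below that of Olfr. Members of a family share sequence and some windows overlap, so no test between families was made.

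After GC correction the family ratios were 0.927 (0.895 to 0.960) for Olfr, 0.887 (0.803 to 0.979) for Vmn1r, 0.847 (0.749 to 0.957) for Vmn2r and 0.946 (0.802 to 1.12) for Tas2r. The intervals of Olfr, Vmn1r and Vmn2r stayed below 1, that of Tas2r included 1, and all 4 overlapped each other. Median GC content was lowest in Vmn2r, at 34.8%, followed by Tas2r, then Vmn1r at 37.2% and Olfr at 38.4%.

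The 3 Tas1r genes, on chromosome 4, were the GC-rich exception with a median of 55.1% GC. Tas1r1, the umami-specific subunit, had 18 anti-FLAG and 8 IgG tags, a ratio of 2.26 (0.936 to 6.02; adjusted p = 0.116, exact test). Its 5′ end lies 753 bp from that of Nol9, a gene of ribosome synthesis, so the window covers both starts. Tas1r2, the sweet-specific subunit, had 2 and 5 tags, and Tas1r3, the subunit common to both receptors, had 7 and 4. Summed, the 3 genes had a ratio of 1.60 (0.840 to 3.12), and of 1.05 (0.552 to 2.05) after GC correction.

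Of the receptors with the most anti-FLAG tags, none passed the test. Olfr1420 had 21 anti-FLAG and 14 IgG tags, a ratio of 1.51 (0.732 to 3.21), and Olfr1423 had 18 and 14. Tas2r126 had 17 and 18 tags, and Olfr1441 had 16 and 9. Most IgG tags were found at Olfr456, with 14 anti-FLAG and 19 IgG tags, and at Olfr1443, with 8 and 19, neither of which passed. Olfr1134 and Tas2r136, with 18 IgG tags each, were also among the highest in IgG and were lower with anti-FLAG, as given above. The 3 Olfr genes with the most anti-FLAG tags, Olfr1420, Olfr1423 and Olfr1441, lie in 1 cluster on chromosome 19, as does Olfr1443. Both libraries were dense there: the cluster held 4.09 anti-FLAG and 4.50 IgG tags per kb. Chromosome 19 as a whole held 5.73 and 5.49, against means of 3.62 and 3.64 over the autosomes and X.

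Among receptors with at least 20 tags, the highest log2 ratio was 1.11 in Olfr (Olfr1406, 14 anti-FLAG and 6 IgG tags), 0.84 in Tas2r (Tas2r107, 15 and 8), 0.55 in Vmn1r (Vmn1r236, 15 and 10) and 0.33 in Vmn2r (Vmn2r83, 14 and 11). The lowest in Vmn1r was -0.82 (Vmn1r54, 8 and 15). None of these 5 passed the exact test. The lowest in the other families were Olfr1446, Tas2r136 and Vmn2r68-ps, given above.

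Receptors that are well studied had few tags in either library. Olfr78, an olfactory receptor also found in the carotid body and kidney, had 7 anti-FLAG and 5 IgG tags. Olfr544, also described in fat and liver, had 9 and 10. Olfr2 (I7), a receptor for octanal, had 5 and 4. Olfr17 (P2) had 1 and 8, Olfr16 (MOR23) 12 and 7, Olfr151 (M71) 5 and 2, Olfr73 (mOR-EG) 9 and 3 and Olfr1507 (MOR28) 12 and 5. Except for Olfr17, at 0.126 (0.00283 to 0.938), every one of these 8 intervals included 1, and none of the 8 reached 20 tags.

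The bitter receptor Tas2r105, which responds to cycloheximide, had 9 and 8 tags, Tas2r108 had 12 and 6 and Tas2r138 had 5 and 6. Vmn1r49 had 7 and 2 tags, Vmn2r26 had 2 and 2, and Vmn2r116, the receptor of the tear pheromone ESP1, had 3 and 4. None of these 6 reached 20 tags either.

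Around the Olfr coding start, the 2 libraries changed differently. Most mouse olfactory receptors are encoded by 1 coding exon, and the annotated 5′ end is the coding start itself in 898 of the 1471 receptors (61.0%), so the profile was aligned on the coding start. In the 750 bp upstream of the Olfr coding start the density was 2.74 anti-FLAG and 3.63 IgG tags per kb, a ratio of 0.759 (0.718 to 0.801). In the 750 bp downstream it was 2.52 and 2.60 tags per kb, a ratio of 0.974 (0.917 to 1.03). IgG density thus fell across the coding start while anti-FLAG density moved less, and the 2 intervals do not overlap.

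The share of unique words also changed there, from a median of 99.5% upstream to 84% downstream, which bears on the density of both libraries. GC content changed at the same place, from 34.1% upstream to 44.7% downstream. Corrected for GC content, the 2 Olfr sides were 0.917 (0.868 to 0.969) and 0.898 (0.845 to 0.954), with overlapping intervals. Before correction, Vmn1r genes gave 0.765 upstream and 0.786 downstream, Vmn2r genes 0.673 and 0.692, and Tas2r genes 0.827 and 0.845, each pair with overlapping intervals. In Vmn1r genes GC content also rose, from 33.1% to 42.7%. Their uncorrected intervals were 0.650 to 0.900 upstream (267 anti-FLAG and 351 IgG tags) and 0.664 to 0.929 downstream (254 and 325). These are too wide to show whether the ratio changed by as much as in Olfr genes. The corrected Vmn1r ratios were 0.927 (0.788 to 1.09) upstream and 0.798 (0.675 to 0.944) downstream, with overlapping intervals. The 2 sides were chosen after the profile had been seen.

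**Figure D2:**
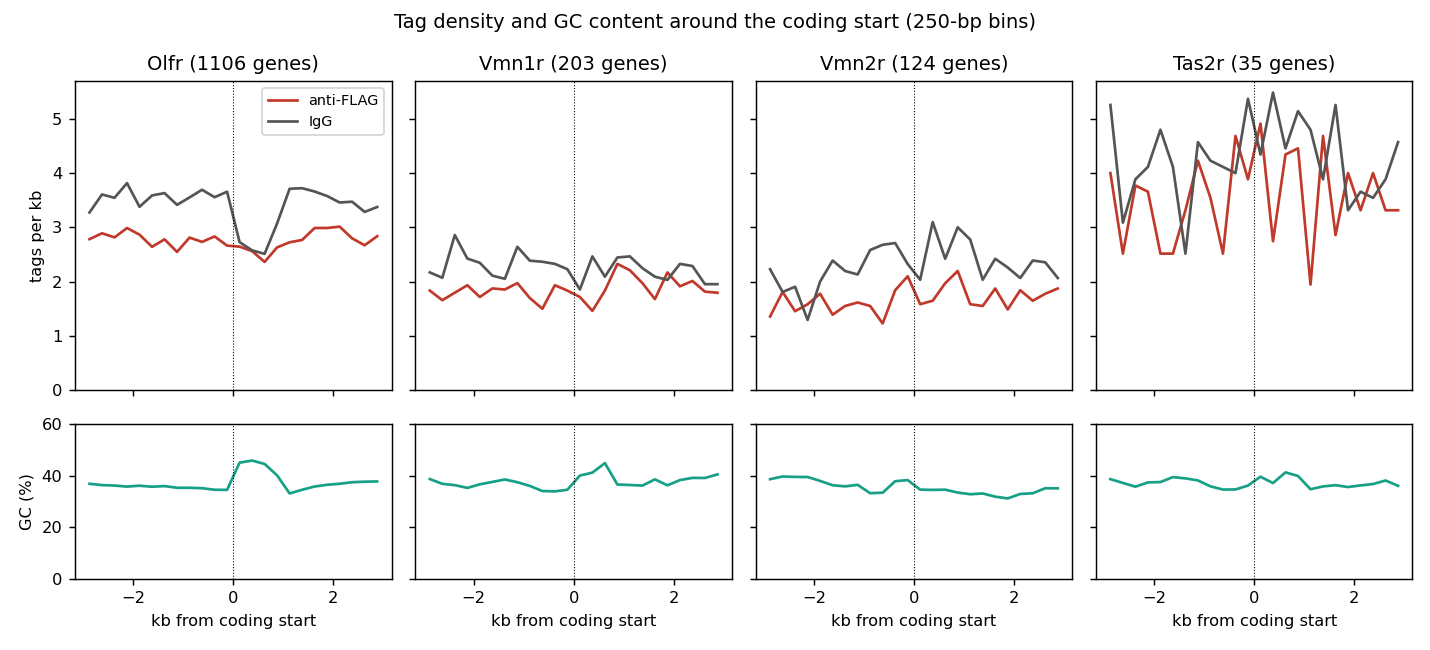
Anti-FLAG (red) and IgG (grey) tags per kb in 250-bp bins around the coding start (upper panels), with the GC content of the same bins (lower panels), for Olfr, Vmn1r, Vmn2r and Tas2r genes. In Olfr genes IgG density drops over the first 750 bp of coding sequence, to 2.60 tags per kb, where GC content rises to 44.7%.

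The position of the annotated start made little difference to the summed ratio before GC correction. It was 0.819 (0.786 to 0.853) in the 898 receptors annotated from the coding start, 0.830 (0.785 to 0.877) in the 438 with a 5′ end less than 1 kb further upstream, and 0.844 (0.763 to 0.933) in the 135 with 1 kb or more of upstream transcript. After GC correction these ratios were, in the same order, 0.918 (0.882 to 0.956), 0.902 (0.854 to 0.954) and 0.982 (0.888 to 1.09). The corrected interval of the 135 receptors thus included 1, and it overlapped those of the other groups. RefSeq starts could be placed on NCBIM37 for 1176 receptors, of which 921 lay within 10 bp of the GENCODE 5′ end. Their summed ratio at the RefSeq starts was 0.823 (0.795 to 0.851). For the 26 whose RefSeq start lay over 1 kb upstream it was 0.711 (0.569 to 0.885), and 0.775 (0.621 to 0.965) after GC correction.

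Neighbouring genes were compared in the same way, without GC correction. The 1326 receptors over 10 kb from the 5′ end of any gene outside the 5 families had a ratio of 0.829 (0.802 to 0.856). The 124 receptors at over 2 and up to 10 kb had 0.759 (0.681 to 0.846), and the 21 within 2 kb had 0.975 (0.756 to 1.26). These splits were made after earlier results had been seen.

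At equal GC content the summed ratio of the receptors lay below that of the other genes in 9 of 10 strata that held at least 20 of each. The intervals did not overlap at 34 to 36%, at 38 to 40% and in every stratum from 42 to 50% GC, and they overlapped in the others. At 34 to 36% the 168 other genes held 3056 anti-FLAG and 3223 IgG tags, more than the 308 at 36 to 38%, with 2121 and 2518. Their summed ratio thus rested on deeper windows, a spread between genes that the interval does not cover. At 36 to 38% GC, the stratum with the most receptors (307), the receptor ratio was 0.802 (0.746 to 0.861) and that of the other genes 0.847 (0.799 to 0.898). There the median log2 ratio was 0 in receptors and -0.09 in the other genes. That receptor median is the value of a window with 0 tags in both libraries, so it does not show receptors to be higher. At 30 to 32% GC the median log2 ratio also went the other way, at -0.41 in receptors and -0.47 in the other genes. At 44 to 46% GC the 85 receptors had 0.852 (0.752 to 0.966) and the 1325 other genes 1.31 (1.28 to 1.35), while windows far from genes had 1.08. The gap between receptors and other genes was wider, as a fold, in each of the 3 strata above 44% GC than in any stratum below.

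**Figure D3:**
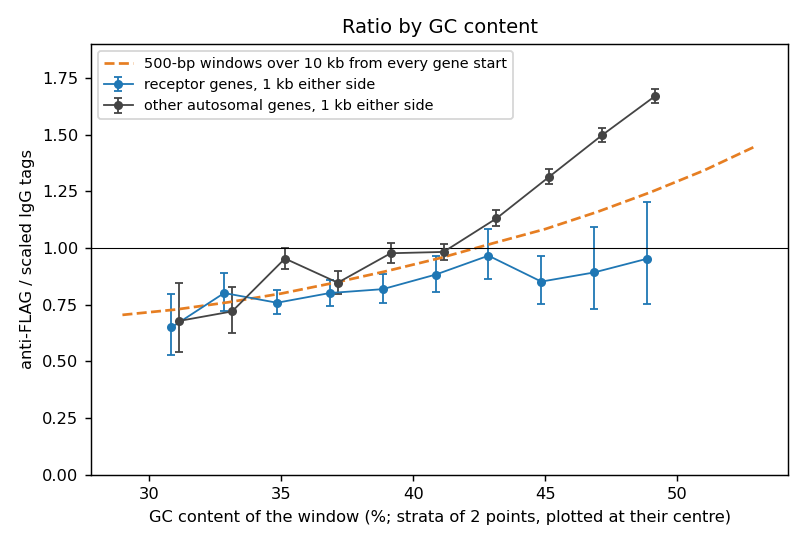
Ratio of anti-FLAG to scaled IgG tags (y axis) by GC content (x axis) for receptor genes, other autosomal genes and 500-bp windows over 10 kb from every gene start; bars are 95% intervals covering counting error. Receptor ratios lie below the line of distant windows in 9 of the 10 strata, and the other genes rise to 1.67 at 48 to 50% GC.

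Clusters were defined as 5 or more members of 1 family with at most 500 kb between neighbouring starts, and their whole spans were counted, intergenic sequence included. There were 54 clusters with 1389 members over 51.6 Mb, holding 107882 anti-FLAG and 126344 IgG tags, a summed ratio of 0.859 (0.852 to 0.866). The interval lay below 1 in 38 clusters and above 1 in 2. With GC correction the summed ratio was 0.961 (0.954 to 0.969), and the interval lay below 1 in 15 clusters and above 1 in 2, of which 1 was also above 1 without correction.

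The largest cluster held 221 Olfr genes on chromosome 2 (chr2:85171054-90122730), with 2.32 anti-FLAG and 2.95 IgG tags per kb and a ratio of 0.789 (0.770 to 0.809). The class I olfactory receptors, the family branch shared with fish, lie in a cluster of 129 genes on chromosome 7 that holds Olfr78 (chr7:109625287-112517869), with a ratio of 0.857 (0.828 to 0.887) over the span. Around its 5′ ends the ratio was 0.773 (0.693 to 0.862), against 0.849 (0.818 to 0.881) for all other Olfr genes, with overlapping intervals. After GC correction these were 0.812 (0.727 to 0.905) and 0.942 (0.908 to 0.977), which did not overlap. Over the whole span the corrected ratio of this cluster was 0.946 (0.914 to 0.979). All 32 Olfr clusters summed, this one included, had 0.958 (0.949 to 0.968), an overlapping interval.

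The lowest ratio of any cluster, 0.753 (0.689 to 0.823), was that of 18 Tas2r genes on chromosome 6 (chr6:132606975-133005834), which include Tas2r136. The other Tas2r clusters, also on chromosome 6, had 0.857 (0.685 to 1.07) with 6 genes and 1.07 (0.998 to 1.15) with 5. The intervals of the lowest and the highest Tas2r cluster did not overlap. With GC correction the 3 became 0.903 (0.826 to 0.987), 0.978 (0.782 to 1.22) and 1.05 (0.982 to 1.13), with overlapping intervals.

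The 2 clusters with intervals above 1 were 6 Olfr genes on chromosome 4 around Olfr70, with 492 anti-FLAG and 418 IgG tags, and 8 Vmn2r genes on chromosome 7 from Vmn2r29 to Vmn2r36, with 317 and 245. Their ratios were 1.18 (1.04 to 1.35) and 1.30 (1.10 to 1.54). The Olfr cluster had 45.8% GC and became 1.04 (0.914 to 1.19) with GC correction, while the Vmn2r cluster remained at 1.28 (1.08 to 1.52). The other cluster above 1 after correction held 13 Olfr genes on chromosome 13 from Olfr1370 to Olfr1359, at 1.06 (1.003 to 1.12), and its uncorrected ratio was 1.02 (0.969 to 1.08). Only 12.3% of the Vmn2r cluster is unique sequence, and the 5′ ends of its genes held 2 anti-FLAG and 6 IgG tags, so the excess lay between the starts.

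**Figure D4:**
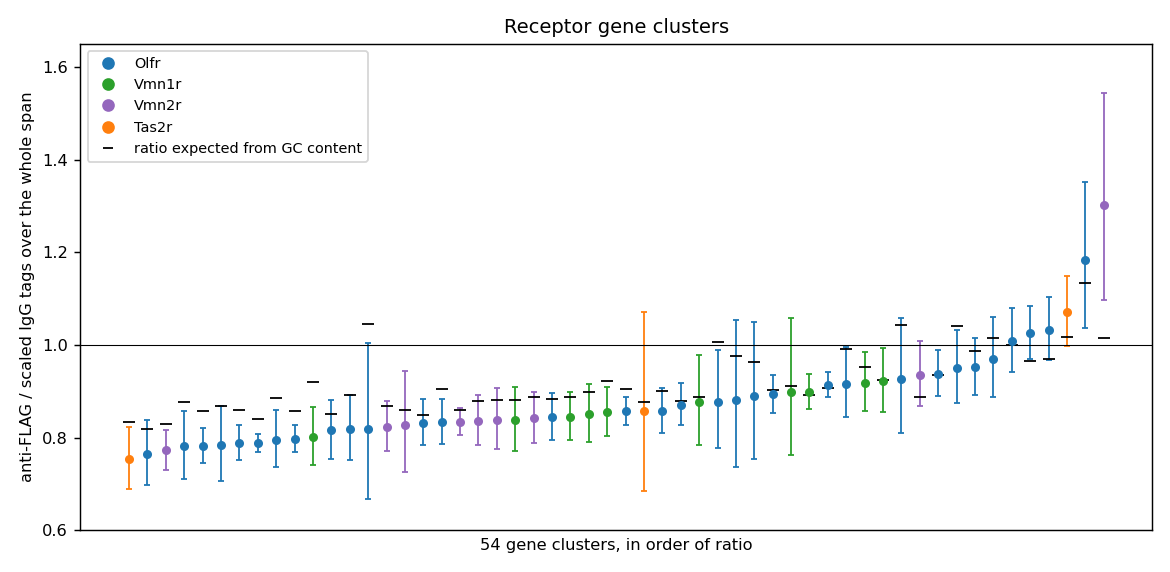
Ratio of anti-FLAG to scaled IgG tags (y axis) over the whole span of each of the 54 clusters, in order of ratio and coloured by family, with 95% intervals covering counting error; black dashes give the ratio expected from GC content. Ratios run from 0.753 to 1.30, and 38 intervals lie below 1.

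Repeated sequence limited what could be counted in these gene families. A 36-base word that occurs more than once in the genome cannot be placed, and 99.6% of the tags in the windows examined began a unique word in each library. Of the 88 receptors whose 1 kb window held under 20% unique words, 64 had 0 tags in both libraries. They were 51 Vmn1r, 30 Vmn2r and 7 Olfr genes. A count of 0 in such a window, which allows up to 3 tags per library, does not measure the chromatin there.

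The least covered clusters were 16 Vmn2r genes from Vmn2r37 to Vmn2r52, with 0.245 anti-FLAG and 0.298 IgG tags per kb, and 64 Vmn1r genes from Vmn1r91 to Vmn1r183, with 0.290 and 0.363. Both lie on chromosome 7, and 10.6% and 13.4% of their words were unique. The summed ratio was 0.924 (0.563 to 1.51) under 20% unique words and 0.867 (0.582 to 1.29) at 20 to 40%, with few tags. It was 0.794 (0.665 to 0.946) at 40 to 60% and 0.830 (0.802 to 0.860) at 80 to 100%. The intervals of these 4 bins overlap.

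**Figure D5:**
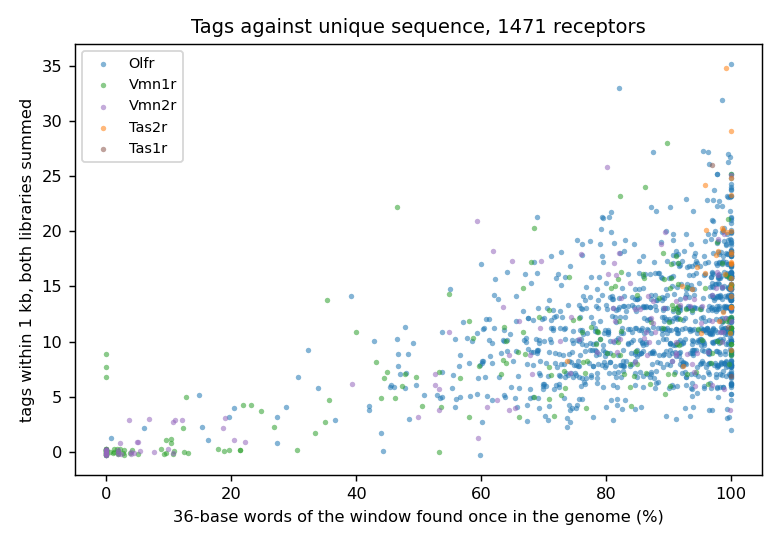
Tags of both libraries summed within 1 kb of the 5′ end (y axis) against the share of 36-base words of the window found once in the genome (x axis), for each receptor and coloured by family. Receptors with 0 tags gather at the left, where 64 of 88 windows under 20% unique words are empty.

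Other chemosensory genes were counted within 1 kb of their 5′ ends beside the receptors. The trace amine receptors (Taar), most of which are olfactory receptors, held 145 anti-FLAG and 150 IgG tags over 15 genes, a ratio of 0.972. Of the 6 tested, 0 passed. The 4 formyl peptide receptor genes of the vomeronasal organ (Fpr-rs) held 18 and 33 tags, and none had enough tags to test at this width. Within 2.5 kb all 4 were tested and 0 passed in either direction. Genes that encode the transduction, trafficking and gene-choice machinery lie outside the receptor arrays, and 5 of the 12 tested of 31 were higher with anti-FLAG and 0 lower by the exact test. They were Ric8b (39 and 12 tags), an exchange factor of the olfactory G protein, and Gnai2 (26 and 7), a G protein subunit of vomeronasal neurons. The others were Ldb1 (23 and 8), Emx2 (28 and 8) and Atf5 (20 and 6), from the receptor-choice list. Within 2 kb of their starts lay 1 other annotated gene start for Ldb1, 1 for Emx2 and 2 for Atf5, so these counts may include tags of neighbours. None of the 5 passed after GC correction, and the 29.7% of all genes that were higher is the background of that count.

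Other tandem families with tissue-restricted roles, the Krtap, Defb and Lce genes of hair, defensins and skin, gave a ratio of 0.887 (0.795 to 0.990) over 105 genes, and 0.870 (0.779 to 0.971) after GC correction. The ribosomal protein genes, which every growing cell uses, gave 2.26 (2.09 to 2.45) and 1.70 (1.57 to 1.84). The interval of the receptors, 0.825 (0.799 to 0.851), overlapped that of the Krtap, Defb and Lce genes and not that of the ribosomal protein genes.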

How the data were processed

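ChIP-seq tags of 1 anti-FLAG and 1 IgG library were analysed. The authors' deposited files list tag positions, start and end, with a constant score that was not used. The sources used here do not name the aligner, build or filters. All tags were 36 bases long, 0 shared position and strand, and their extents fitted NCBIM37 except 4 anti-FLAG and 2 IgG tags beyond a chromosome end, so that build and GENCODE M1 were used.

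Tags were moved 76 bp downstream, from the strand lag of 152 bp, and counted 1 kb and 2.5 kb either side of each 5′ end. Genes whose tags summed to 20 or more over both libraries entered a 2-sided exact conditional binomial test, with p Benjamini-Hochberg adjusted over all protein-coding genes of the autosomes and X. Intervals are exact (Clopper-Pearson, 95%). The test was run on simulated data, where it missed all of the smallest planted changes. A first set of planted changes had been recovered too seldom, and larger ones were then added and the pass rule set on the largest. A receptor not called can therefore hold a moderate difference.

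The GC correction takes the tags of each library per 500-bp window, in strata of 2 GC points, over 10 kb from every gene start. For single genes the expected ratio is that of the rates expected in the window; for sums each IgG tag is weighted by the ratio of its own stratum. The form of this correction was changed more than once after results had been seen, and the other forms are given in the closing section. RefSeq starts were placed by exact match of 300 bases from the RefSeq table of GRCm38. Python 3.11.15, NumPy 2.4.6, SciPy 1.17.1, numba 0.67.0 and Matplotlib 3.10.9 were used.

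The members and lists were chosen with earlier results of these data known. Receptors were named by a rule: those past the 1 kb test, the 5 with most tags of each library, the highest and lowest log2 ratio per family with at least 20 tags, all Tas1r and a list of known receptors. One upstream sequence that the rule names is not reported here. Alternatives changed the scaling, tag shift, tag minimum, width, pseudocount, starts, uniqueness, cluster gap and GC correction.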

Additional observations from a re-analysis of the deposited data

How the results depend on the processing

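No paired analysis was possible because there was 1 library per antibody, and no library could be left out. Within 1 kb, 0 receptors were higher under every alternative run except a minimum of 10 tags. That gave 4 of 889 receptors tested, against 3021 of all 18210 genes tested. They were Olfr473 (10 anti-FLAG and 1 IgG tags), Olfr523 (11 and 1), Olfr1391 (10 and 1) and Olfr462 (10 and 0). All 4 reached the 10 tags through anti-FLAG, and a receptor with few anti-FLAG tags could not enter in this direction. Within 2.5 kb the intervals of Olfr473, Olfr1391 and Olfr462 included 1, and that of Olfr523, 1.03 to 7.33, did not. Within 2.5 kb, scaling by background bins (0.908) gave 2 of 1225 receptors, Tas1r1 (35 and 16) and Olfr532 (18 and 5). Over all genes it gave 3719 of 20310. A minimum of 10 tags gave 1 of 1377 receptors, Olfr533 (14 and 2), against 2051 of 21349 over all genes. These names were chosen after their values were seen. The 5 lower calls within 1 kb became 3 without moving tags, 3 with only genes whose 5′ end lies upstream of the coding start, and 0 at 500 bp, where 0 receptors had enough tags. With RefSeq starts they were 3 and with receptors over 10 kb from other genes 3, 2 alternatives added after seeing the data. GC correction gave 0, and at 2.5 kb 0 in place of 15.

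Other forms of the GC correction were kept as alternatives added after seeing the data. Taking the mean of sub-window ratios, 0 receptors were lower within 1 kb and 0 within 2.5 kb. Weighting each IgG tag, 1 was lower within 1 kb (Tas2r136, adjusted p = 0.0418, exact test) and 0 within 2.5 kb. No receptor was higher in any of the 3 forms. Over all genes the form mattered more: within 1 kb 252 were higher and 2 lower as reported, 31 and 3 with the mean and 386 and 4 with weighted tags, and within 2.5 kb 198 and 1, 51 and 5, and 190 and 4. The Olfr ratio was 0.901 with the mean and 0.914 with expected rates, the Vmn1r ratio 0.880 and 0.886, and the Vmn2r ratio 0.843 and 0.846. The cluster ratio was 0.945 with expected rates. The median log2 ratio was -0.0773 with GC correction, -0.0849 with the mean and -0.0684 with weighted tags.

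Further values that moved with the processing included the median log2 ratio, which has no interval, and the Olfr ratio. The median log2 ratio was -0.10 with background-bin scaling, -0.37 over receptors with 20 tags, -0.28 at 2.5 kb and 0 at 500 bp. That median of 0 is the value of a window with 0 tags in both libraries. The Olfr ratio was 0.921 with background-bin scaling, 0.808 at 2.5 kb and 0.927 with GC correction. Vmn1r and Vmn2r moved with GC correction to 0.887 and 0.847. The cluster ratio was 0.874 with gaps of up to 1 Mb, 0.941 with background-bin scaling and 0.961 with GC correction. All summed ratios of Olfr, Vmn1r and Vmn2r and of the clusters stayed below 1 under every alternative run.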

Other observations

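In the cluster of 8 Vmn1r genes on chromosome 6 from Vmn1r32 to Vmn1r39, the windows of 1 kb around the 5′ ends held 18 anti-FLAG and 54 IgG tags, a ratio of 0.335 (0.185 to 0.581), while the whole span held 596 and 684, a ratio of 0.876 (0.784 to 0.980). The 2 intervals do not overlap. This cluster was picked out after the values of all 54 had been seen, and the windows are part of the span.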
